A study of Mus musculus with 12 samples.

Results

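The genes that carry the leukemia inhibitory factor (LIF) signal in mouse embryonic stem cells (ESCs) were followed under loss and gain of the Yes-associated protein (YAP). They were 9 genes, matched by symbol in all 12 libraries among the 24480 genes of each table: the receptor chains Lifr and Il6st, the kinase gene Jak1, the transcription factor gene Stat3, and Socs3, Pim1, Pim3, Junb and Gbx2, which are known targets of STAT3 in ESCs kept with LIF. The cells were E14Tg2a, a feeder-free mouse line grown on gelatin in serum with LIF, so that all groups had the ligand. For the knockdown, transient transfection delivered either pooled Stealth siRNAs to mouse YAP (group YAP KD) or scrambled siRNAs (group CTR KD). For the overexpression, group YAP OE received pCAG-mYAP, in which the CAG promoter drives wild-type mouse YAP, and group CTR OE received a plasmid that encodes GFP by the labels and is an empty vector by the paper. Each group had 3 libraries from independent samples, the knockdown and the overexpression each had their own controls, and a transiently transfected culture can hold cells that took up no siRNA or plasmid.

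LIF binds a receptor made of LIFR and gp130, the product of Il6st. The receptor activates Janus kinases, mainly JAK1 in ESCs, which phosphorylate STAT3, and STAT3 enters the nucleus and switches on genes that help to hold ESCs undifferentiated. Socs3 is both a target and a brake, since its product blocks the receptor-bound kinases. Pim1 and Pim3 encode serine/threonine kinases that act on survival and self-renewal, Junb encodes a subunit of the AP-1 transcription factor, and Gbx2 encodes a homeobox factor that can sustain self-renewal when it is forced. YAP is a coactivator of the Hippo pathway and reaches DNA through TEAD factors.

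The sequences before the start sites of the genes the results turn on are given first, as the 250 bases upstream of a start site of each, 5′ to 3′ on the strand of the gene (GRCm38.p6, RefSeq). Pim1 has 2 start sites, and the window of the first is shown. That of the second, chr17:29492835-29493084, was searched but is not shown. Socs3 and Stat3 hold matches to the motifs searched, and Pim1 and Pim3 are the genes that fell in YAP KD. Capitals mark TTCNNNGAA, the spaced palindrome that STAT factors bind, in Socs3, and the reverse strand of GGAATG, the motif that TEAD factors bind, in Stat3.
Socs3, chr11:117969367-117969616, - strand: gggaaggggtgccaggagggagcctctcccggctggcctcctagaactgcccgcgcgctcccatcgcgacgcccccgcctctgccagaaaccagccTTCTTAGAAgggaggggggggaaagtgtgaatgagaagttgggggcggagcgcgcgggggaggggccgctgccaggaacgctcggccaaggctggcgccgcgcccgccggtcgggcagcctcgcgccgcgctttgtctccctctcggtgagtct
Stat3, chr11:100939541-100939790, - strand: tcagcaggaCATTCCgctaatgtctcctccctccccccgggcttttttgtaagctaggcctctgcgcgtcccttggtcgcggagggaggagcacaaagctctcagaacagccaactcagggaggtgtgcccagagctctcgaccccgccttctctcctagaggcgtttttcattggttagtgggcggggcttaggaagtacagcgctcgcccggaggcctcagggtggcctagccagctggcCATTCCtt
Pim1, chr17:29490535-29490784, + strand: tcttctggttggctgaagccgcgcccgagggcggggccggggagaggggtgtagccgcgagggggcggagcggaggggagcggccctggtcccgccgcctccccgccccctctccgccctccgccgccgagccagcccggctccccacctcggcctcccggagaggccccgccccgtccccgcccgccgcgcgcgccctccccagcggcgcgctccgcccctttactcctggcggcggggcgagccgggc
Pim3, chr15:88861944-88862193, + strand: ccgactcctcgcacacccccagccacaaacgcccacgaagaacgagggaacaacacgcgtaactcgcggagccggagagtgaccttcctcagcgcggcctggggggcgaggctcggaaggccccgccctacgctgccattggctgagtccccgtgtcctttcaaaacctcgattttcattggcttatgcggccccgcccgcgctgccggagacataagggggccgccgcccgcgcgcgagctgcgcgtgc
All 9 genes had an entry, with 11 start sites between them. Both strands were searched, and the letters of the motifs do not overlap in these windows. TTCNNNGAA was found once, in Socs3, from 154 to 146 bases before the start. Of 32851 promoter windows, the same length before RefSeq start sites, 7.02% hold it. GGAATG was found 2 times in Stat3, from 8 to 3 and from 241 to 236 bases before the start, and 12.6% of the windows hold it. None of the other 7 genes had a match to either motif in its window or windows. The windows of Lifr, from chr15:7129322 and chr15:7140292, lie inside its gene interval, which begins at 7090610. That of Socs3 lies inside its interval too, which ends at 117970336 on the side of the start. Any start nearer the 5′ end of these intervals was not searched.

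The Yap1 transcript itself followed the labels. It was at 116 to 134 CPM (counts scaled to a common library size) in the CTR KD libraries and at 54.8 to 58.2 in YAP KD, and at 131 to 134 in CTR OE and at 245 to 278 in YAP OE. The libraries held 42900000 to 57200000 expected counts, and the 9 genes took 0.0863% to 0.0966% of them. The 6 ESC identity markers summed to 3190 to 3460 CPM over all groups, and none of them was below 1 CPM. Their median log2 fold change was -0.126 in YAP KD and -0.035 in YAP OE. Nanog (-0.131), Zfp42 (-0.131) and Esrrb (-0.155) were lower in YAP KD at an unadjusted p under 0.05 in edgeR's test, beside 2868 of 14606 genes tested. The rest of the list was not under 0.05: Pou5f1 (0.069) and Sox2 (0.027) had estimates above 0, and Utf1 (-0.12) had one below. None of the 6 had an adjusted p under 0.05 in either experiment. The 6 primitive endoderm markers summed to 3.83 to 5.98 CPM, with 4 of them below 1 CPM in each group. The 5 fibroblast markers summed to 2.5 to 2.78 CPM in CTR KD, 3.11 to 3.78 in YAP KD, 3.42 to 3.82 in CTR OE and 3.62 to 4.04 in YAP OE, with 3 to 5 of them below 1 CPM in each group.

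Levels of different genes were compared as CPM per kilobase of effective length, scaled over all 12 libraries. In CTR KD the kinase genes Pim3 and Pim1 were highest, at 87.3 ± 5.48 and 66.2 ± 5.28 (mean ± SD, n = 3), and Socs3 followed at 38.4 ± 1.81. Il6st was at 24.8 ± 0.259, Lifr at 23.7 ± 1.07 and Stat3 at 23.7 ± 0.647, and Junb was at 21.2 ± 1.43. Gbx2, at 15.4 ± 1.38, and Jak1, at 8.9 ± 0.329, were lowest. The steps from Pim3 to Pim1, from Pim1 to Socs3, from Socs3 to Il6st, from Junb to Gbx2 and from Gbx2 to Jak1 had no overlap between libraries, whereas the ranges of Lifr met those of Il6st, Stat3 and Junb. The same holds for the top of the order in the other groups: in every one of the 12 libraries Pim3 was above Pim1 and Pim1 above Socs3. The receptor chains and Stat3 were thus at like levels per length, between 21.4 and 25.7 in all 12 libraries, and the inhibitor and the PIM kinase genes were above them. 

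**Figure D1:**
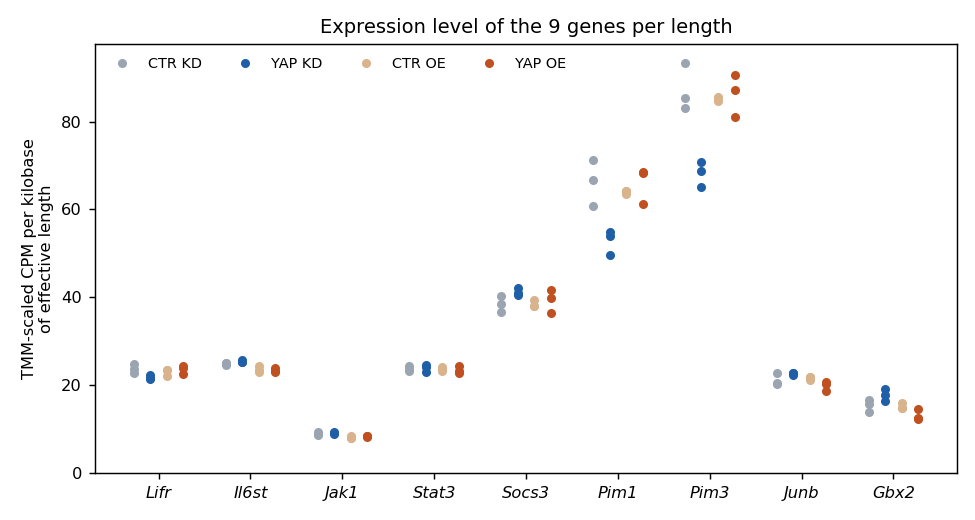
Expression level of the 9 genes as CPM per kilobase of effective length (y axis, linear, from 0), 1 point for each library, coloured by group, with the genes on the x axis from the receptor chains to the targets. Pim3 and Pim1 lie highest and are the genes whose YAP KD points (65.1 to 70.7 and 49.7 to 54.9) sit apart below the points of the other groups.

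Knockdown of YAP lowered the transcripts of Pim1 and Pim3, the PIM kinase genes among the 9, and no other of the 9 genes was called. Pim3 fell by 21.9% and Pim1 fell by 20.4%, while the receptor chains, Jak1 and Stat3 gave estimates between -6.4% and 2.47%. In edgeR's quasi-likelihood test, with Benjamini-Hochberg adjustment over all genes tested and a call at an adjusted p under 0.05, 2 of the 9 genes were called, both lower; of the 14606 genes tested, 5.49% were called and 2.78% were called lower. The median log2 fold change of the 9 genes was 0.033, beside 0.0058 over all genes tested. In RNA from whole cultures, fewer cells of a type and less RNA per cell cannot be told apart.

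Pim3 (gene ID 223775, chr15:88862194-88865726) was at 186, 208 and 191 CPM in CTR KD and at 153, 145 and 159 CPM in YAP KD. All 3 YAP KD libraries lay below all 3 controls, with a gap from 159 to 186. The log2 fold change was -0.36 (SE 0.054, 95% interval -0.48 to -0.24, adjusted p = 0.00589). The call held when any 1 of the 6 libraries was left out.

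Pim1 (gene ID 18712, chr17:29490785-29496111) was at 96.1, 112 and 105 CPM in CTR KD and at 86.0, 78.2 and 85.7 CPM in YAP KD. The groups again did not overlap, although the controls spread more widely than those of Pim3 in proportion to the mean. The log2 fold change was -0.33 (SE 0.062, 95% interval -0.47 to -0.19, adjusted p = 0.0158). Each of 3 libraries decided the call, which was lost without CTR KD replicate 3 (-0.32, adjusted p = 0.0769), without YAP KD replicate 1 (-0.35, adjusted p = 0.0502) or without YAP KD replicate 2 (-0.28, adjusted p = 0.0844). The part that the fibroblast markers, whose sums also did not overlap between CTR KD and YAP KD, had in the values of Pim1 and Pim3 was not tested.

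**Figure D2:**
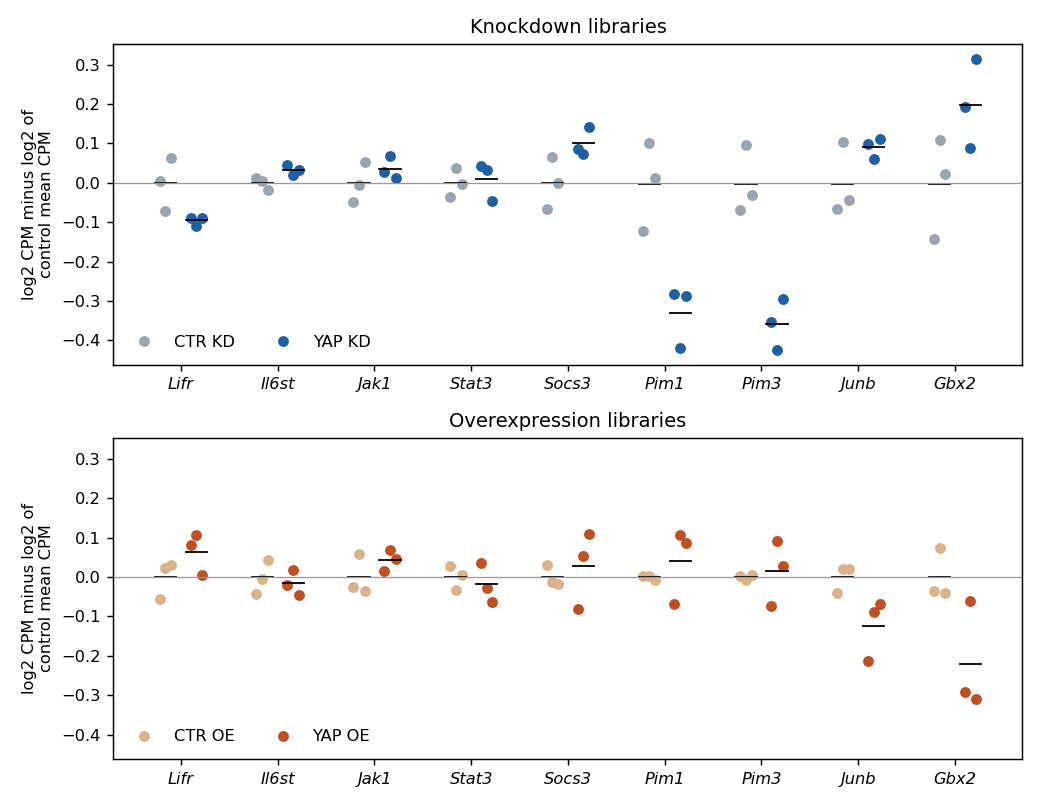
Log2 CPM of each of the 9 genes in each library minus the log2 of its control mean (y axis), knockdown libraries above and overexpression libraries below; points are libraries and short bars are group means. In the upper panel the YAP KD points of Pim1 and Pim3 lie between -0.42 and -0.28, apart from their controls, and in the lower panel the YAP OE points of Junb and Gbx2 lie below theirs.

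The other 3 targets gave estimates above 0 in YAP KD, none of them called. Socs3 (gene ID 12702, chr11:117966079-117970336) was at 93.5, 102 and 97.8 CPM in CTR KD and at 104, 103 and 108 CPM in YAP KD. Its log2 fold change was 0.10 (SE 0.045, adjusted p = 0.257), so the shift of the pathway's brake did not pass the test, although its 3 YAP KD libraries lay above all controls. Gbx2 (gene ID 14472, chr1:89927962-89931176) was at 27.2, 32.3 and 30.5 CPM in CTR KD and at 34.2, 31.9 and 37.3 CPM in YAP KD. The groups overlapped, because CTR KD replicate 2 was above YAP KD replicate 2. The log2 fold change of Gbx2 was 0.20 (SE 0.075, unadjusted p = 0.0231, adjusted p = 0.167), and without CTR KD replicate 2 it was 0.26 with an adjusted p of 0.0455 (0.0455 to 0.449 over the 6 fits without a library). Junb (gene ID 16477, chr8:84976909-84978748) was at 33.6, 37.8 and 34.1 CPM in CTR KD and at 37.6, 36.7 and 38 CPM in YAP KD (log2 fold change 0.090, SE 0.053, adjusted p = 0.403).

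The genes upstream of the targets were close to their controls in YAP KD. Lifr (gene ID 16880, chr15:7090610-7197489) was at 192, 182 and 200 CPM in CTR KD and at 180, 178 and 180 CPM in YAP KD. Its YAP KD libraries all lay below the controls, by a small step (log2 fold change -0.095, SE 0.044, 95% interval -0.19 to 0.0035, adjusted p = 0.271). Il6st (gene ID 16195, chr13:112464070-112506860) was at 129 to 132 CPM in CTR KD and at 132 to 135 in YAP KD (log2 fold change 0.032, SE 0.037, adjusted p = 0.7). Jak1 (gene ID 16451, chr4:101151974-101265282) was at 43.9 to 47.1 CPM in CTR KD and at 45.8 to 47.6 in YAP KD (log2 fold change 0.035, 95% interval -0.062 to 0.13, adjusted p = 0.727). RSEM gave Jak1 a fractional count in each of the 12 libraries, so part of its reads was shared with another gene and its level is less certain. Stat3 (gene ID 20848, chr11:100886806-100939594) was at 99.8, 105 and 102 CPM in CTR KD and at 105, 105 and 99.2 CPM in YAP KD. Its log2 fold change of 0.010 had a 95% interval from -0.085 to 0.11, which is 0.943-fold to 1.08-fold of the control level. Over the 9 genes, 5 had groups that did not overlap (Lifr, Il6st, Socs3, Pim1 and Pim3), against 25.9% of all genes tested in this experiment.

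In YAP OE none of the 9 genes was called, beside 2.13% of the 14804 genes tested. Junb and Gbx2, 2 of the 9, had an unadjusted p under 0.05 in the edgeR test, beside 1945 of the 14804 genes. DESeq2 also called 0 of the 9. The median log2 fold change of the 9 genes was 0.017, beside -0.0025 over all genes tested. Both genes with the lowest p were targets whose YAP OE libraries lay below all controls, and these were the 2 of 9 genes without overlap, against 18.1% of all genes tested.

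Gbx2 was at 28.9, 31.2 and 28.8 CPM in CTR OE and at 24.2, 28.4 and 23.9 CPM in YAP OE. One YAP OE library, replicate 2, stood close to the controls, and the other 2 were further below. The log2 fold change was -0.22 (SE 0.062, 95% interval -0.35 to -0.087, adjusted p = 0.0935), and without YAP OE replicate 2 it was -0.30 with an adjusted p of 0.00531 (0.00531 to 0.262 over the 6 fits without a library). Junb was at 35.1, 36.6 and 36.5 CPM in CTR OE and at 31.1, 33.9 and 34.4 CPM in YAP OE, with a log2 fold change of -0.12 (SE 0.047, adjusted p = 0.253).

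The PIM kinase genes, which fell in YAP KD, showed no shift in YAP OE. Pim3 was at 192, 191 and 193 CPM in CTR OE and at 182, 205 and 196 CPM in YAP OE. The YAP OE libraries lay on both sides of the controls, and the log2 fold change was 0.017 (95% interval -0.077 to 0.11, adjusted p = 0.926). Pim1 was at 102, 102 and 101 CPM in CTR OE and at 96.9, 109 and 108 CPM in YAP OE, with a log2 fold change of 0.044 (95% interval -0.053 to 0.14, adjusted p = 0.762). Increases of the size of the YAP KD decrease were thus outside both intervals. Socs3 was at 101, 97.8 and 97.4 CPM in CTR OE and at 93.3, 102 and 106 CPM in YAP OE (log2 fold change 0.029, adjusted p = 0.861).

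The receptor chains, Jak1 and Stat3 overlapped their controls in YAP OE. Lifr was at 181 to 192 CPM in CTR OE and at 188 to 202 in YAP OE (log2 fold change 0.064, adjusted p = 0.572). Il6st was at 121 to 129 and 121 to 127 CPM (-0.016, adjusted p = 0.92), Jak1 at 40.5 to 43.3 and 42.0 to 43.6 CPM (0.043, adjusted p = 0.736), and Stat3 at 101 to 105 and 98.6 to 105 CPM (-0.018, adjusted p = 0.91). These 4 genes thus had estimates within 4.55% of their controls while Yap1 was at 1.95-fold of its control level.

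**Figure D3:**
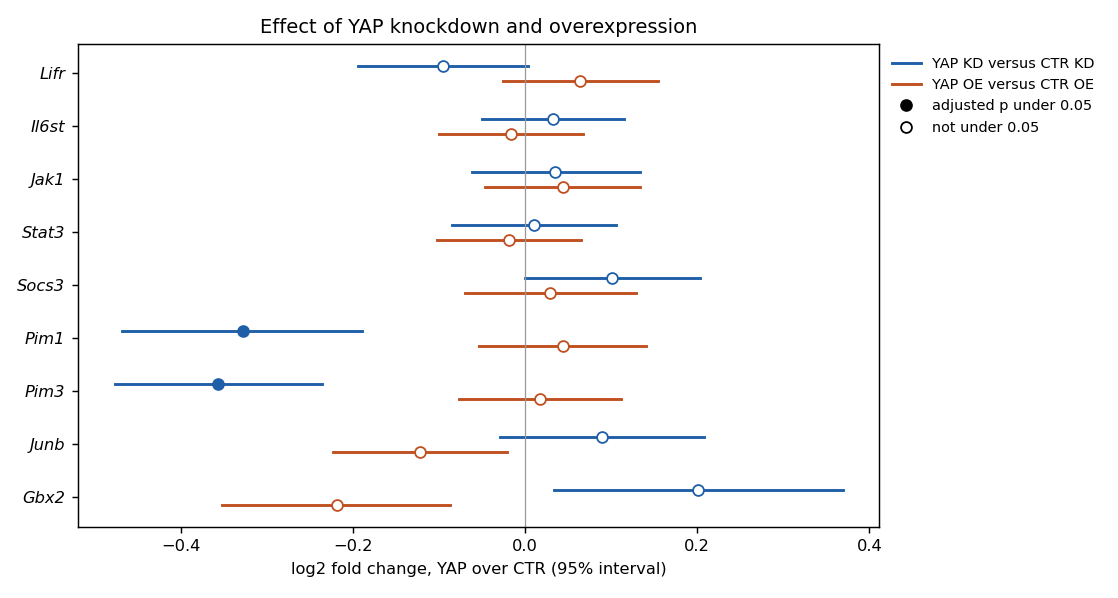
Log2 fold change of YAP over CTR (x axis) with its 95% interval for each of the 9 genes, in the knockdown (blue) and overexpression (orange) libraries; filled points have an adjusted p under 0.05. Pim1 and Pim3 in the knockdown are the filled points, and the intervals of Gbx2 lie on opposite sides of 0 in the 2 experiments.

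The effect of YAP KD and that of YAP OE were then compared gene by gene, in 1 fit over the 12 libraries. The difference between the effects was called for 3 of the 9 genes, Pim1, Pim3 and Gbx2, where 8.8% of 15049 genes tested were called, 3.56% with the YAP KD effect higher and 5.24% with it lower. For Pim3 the effect of YAP KD was lower than that of YAP OE by a log2 difference of -0.38 (SE 0.073, adjusted p = 0.00419), and for Pim1 by -0.37 (SE 0.083, adjusted p = 0.0106). Both calls held when any 1 of the 12 libraries was left out. They rest on the same knockdown libraries as the calls in YAP KD, since the YAP OE estimates were small (0.017 for Pim3 and 0.044 for Pim1). They are thus no separate evidence for the falls in YAP KD. For Gbx2 the effect of YAP KD was higher, by 0.42 (SE 0.11, adjusted p = 0.0244), which 4 libraries decided: the adjusted p was 0.0711 without YAP KD replicate 3, 0.0652 without CTR OE replicate 2, 0.0624 without YAP OE replicate 1 and 0.0648 without YAP OE replicate 3. Junb (0.21, adjusted p = 0.0886) and Lifr (-0.16, adjusted p = 0.117) were not called. Without CTR KD replicate 2 both passed, Junb at 0.27 (adjusted p = 0.0134, range over the 12 fits 0.0134 to 0.193) and Lifr at -0.19 (adjusted p = 0.0413, range 0.0413 to 0.269). The estimates had opposite signs in the 2 experiments for 7 of the 9 genes, Jak1 and Socs3 being the exceptions, and 60.9% of the 14521 genes tested in both did so.

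Of the 5 targets, Pim1 and Pim3 were called in YAP KD and Socs3, Junb and Gbx2 were not, and a difference between targets was not tested. A ratio within a library does not depend on the scaling, and the ratio of Pim3 to Socs3 per kilobase, chosen after the values had been seen, was 2.27, 2.32 and 2.22 in CTR KD and 1.68, 1.61 and 1.68 in YAP KD. It was 2.17, 2.22 and 2.25 in CTR OE and 2.23, 2.27 and 2.09 in YAP OE. The ratio of Pim1 to Socs3 was 1.66 to 1.77 in CTR KD, 1.23 to 1.34 in YAP KD, 1.63 to 1.68 in CTR OE and 1.64 to 1.72 in YAP OE. In both ratios the YAP KD libraries lay below the 9 libraries of the other groups. Every YAP KD library was below its controls for Pim1 and Pim3 and above them for Socs3. The separation thus followed from the choice of genes, and part of the fall in the ratios came from Socs3 (log2 fold change 0.10 in YAP KD, not called).

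The third PIM kinase gene, Pim2 (gene ID 18715, chrX:7878306-7883432), went the other way from Pim1 and Pim3, and of the 4 paralogues of the targets it was the 1 called in YAP KD, with 0 called in YAP OE. It was at 14, 15.5 and 12.9 CPM in CTR KD and at 17.9, 17.9 and 17.1 CPM in YAP KD. It rose by a log2 fold change of 0.31 (SE 0.07, adjusted p = 0.0316), a call that held in 1 of the 6 fits without a single library; it was lost without CTR KD replicate 1 or 3 or any 1 YAP KD library, at adjusted p from 0.0729 to 0.13. In CTR OE Pim2 was at 22.4, 19.2 and 18.8 CPM and in YAP OE at 17.7, 17.7 and 14.5 CPM (log2 fold change -0.28, SE 0.08, adjusted p = 0.0984). The difference between the 2 effects of Pim2 was 0.59 (SE 0.12, adjusted p = 0.00678) and stayed called without any 1 of the 12 libraries. The 2 control groups did not overlap, at 6.95 to 8.37 per kilobase in CTR KD and 10 to 12 in CTR OE. YAP KD, at 9.12 to 9.68, and YAP OE, at 7.75 to 9.48, did overlap. The part that the unlike controls had in the difference was not tested. Per kilobase, Pim2 was at 6.95 to 12 in all 12 libraries, far under Pim1 (49.7 to 71.3) and Pim3 (65.1 to 93.4). The counts of all 3 PIM genes were whole in every library, within 0.005, so no division of reads between them was seen.

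**Figure D4:**
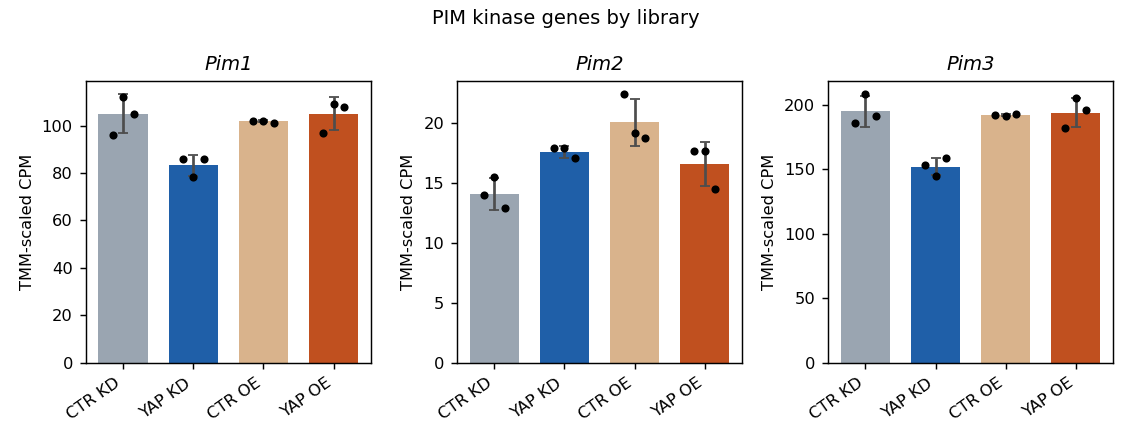
CPM of Pim1, Pim2 and Pim3 (y axes, each from 0) in the 4 groups; bars are means, error bars are SD and points are the 3 libraries of each group. Pim1 and Pim3 are lowest in YAP KD, at 78.2 to 86.0 and 145 to 159 CPM, whereas Pim2 is lowest in CTR KD, at 12.9 to 15.5 CPM.

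Beyond the 9 genes, a list of 50 genes of the pathway was read: ligands, receptor chains, kinases, STAT factors, inhibitors, adaptors, other LIF-responsive genes and paralogues of the targets. In YAP KD, 47 of them could be tested, and 4 were called higher (2.71% of all genes tested) and 1 lower, with a median log2 fold change of 0.032. In YAP OE 49 could be tested, and 1 was called higher (1.66% of all genes tested) and 2 lower (0.473%), with a median of -0.021. In the comparison of the 2 effects, 4 of 49 tested were called (Jak3, Socs2, Cish and Pim2), a share close to the 8.8% of all genes tested.

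Among the ligands, none of 5 tested genes was called in YAP KD and none of 6 in YAP OE. Lif itself was at 4.04 to 5.97 CPM over the 12 libraries, with log2 fold changes of -0.063 (adjusted p = 0.765) and 0.21 (adjusted p = 0.438). Il6, with at most 1 expected count in a library, was tested in neither experiment. Of the other receptor chains that pair with gp130, 3 were tested in YAP KD and 4 in YAP OE with no call; Il11ra1, the most abundant, was at 5.15 and 5.58 CPM in CTR KD and YAP KD and at 5.32 and 4.79 CPM in CTR OE and YAP OE. None of the 6 other STAT genes was called in either experiment, and the most abundant, Stat6, had log2 fold changes of -0.058 and -0.0022.

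Of the 3 other JAK genes, Jak3 (gene ID 16453, chr8:71676383-71690577) was called in both experiments, with opposite signs. JAK3 is known as the partner of the common gamma chain of cytokine receptors in lymphoid cells. It was at 32.4, 36.7 and 29.8 CPM in CTR KD and at 47.3, 45.9 and 50.2 CPM in YAP KD, a rise by a log2 fold change of 0.53 (SE 0.073, adjusted p = 0.00343) that held without any 1 library. In CTR OE it was at 33.0, 30.4 and 32.6 CPM and in YAP OE at 25.8, 28.5 and 27.7 CPM, a fall by 0.23 on the log2 scale (SE 0.051, adjusted p = 0.0276). The call in YAP OE was lost without CTR OE replicate 1 (adjusted p = 0.134), CTR OE replicate 3 (0.145) or YAP OE replicate 1 (0.099), and in 1 fit over all 12 libraries (0.127). Expected counts of Jak3 were not whole in 6 of the 12 libraries, so some of its reads were shared with another gene. Per kilobase it was at 12.8 to 13.9 in YAP KD, above Jak1 at 8.94 to 9.33, whereas in YAP OE it was at 7.16 to 7.89, below Jak1 at 8.18 to 8.47.

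Of the 12 inhibitors and phosphatases, Socs2 and Cish were called in YAP KD and Socs2 in YAP OE. Socs2 (gene ID 216233, chr10:95383903-95417321), a relative of Socs3 best known as a brake on growth hormone signalling, was at 110, 101 and 111 CPM in CTR KD and at 120, 124 and 125 CPM in YAP KD (log2 fold change 0.20, SE 0.047, adjusted p = 0.0422). In CTR OE it was at 107, 109 and 109 CPM and in YAP OE at 98.3, 91.7 and 88.5 CPM (-0.22, SE 0.042, adjusted p = 0.0104). The groups did not overlap in either experiment. The call in YAP KD held in 1 of the 6 fits without a single library, the exception to its loss being the fit without CTR KD replicate 2, and it was also lost with upper-quartile scaling (adjusted p = 0.0506). The call in YAP OE was lost without CTR OE replicate 3 (adjusted p = 0.055). Per kilobase Socs2 was below Pim1 in CTR KD, at 49.9 to 54.6 against 60.7 to 71.3, and above it in YAP KD, at 59.9 to 61.6 against 49.7 to 54.9.

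Cish (gene ID 12700, chr9:107296659-107302784), an inhibitor induced mainly through STAT5, was at 2.34, 2.91 and 2.91 CPM in CTR KD and at 1.84, 2.02 and 1.81 CPM in YAP KD. It fell by 0.53 on the log2 scale (SE 0.13, adjusted p = 0.0409), and of the 6 fits without a library the call held in that without CTR KD replicate 1, the lowest control. DESeq2 did not call Cish (adjusted p = 0.0749). In YAP OE its log2 fold change was 0.21 (adjusted p = 0.517), and the difference between the effects was -0.74 (SE 0.17, adjusted p = 0.015). With 78 to 155 expected counts per knockdown library, Cish was measured at much lower depth than the 9 genes, which had at least 1237 in each library.

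The adaptor gene Shc1 (gene ID 20416, chr3:89418551-89430029), which links receptors to ERK signalling, was the 1 of 6 genes of that branch called in YAP KD. It was at 86.8, 87.6 and 85.6 CPM in CTR KD and at 101, 95.7 and 96.2 CPM in YAP KD (log2 fold change 0.17, SE 0.04, adjusted p = 0.0375), and the call held in 1 of the 6 fits without a single library, that without CTR KD replicate 2. It was also lost without a filter on low counts (adjusted p = 0.0623). In YAP OE its log2 fold change was 0.052 (adjusted p = 0.684). The most abundant adaptor, Gab1, was at 190 and 176 CPM in CTR KD and YAP KD (-0.12, adjusted p = 0.222).

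**Figure D5:**
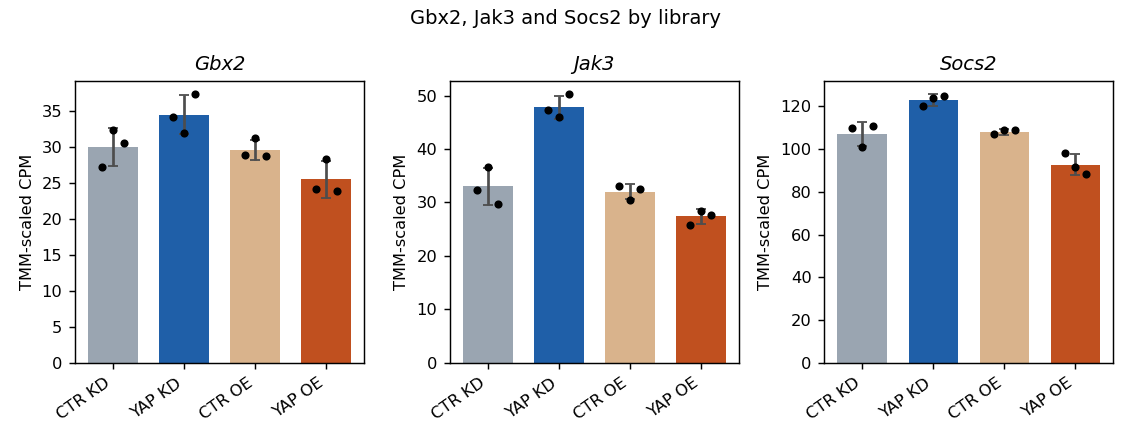
CPM of Gbx2, Jak3 and Socs2 (y axes, each from 0) in the 4 groups; bars are means, error bars are SD and points are the 3 libraries of each group. In each panel YAP KD is highest and YAP OE lowest, as with Jak3 at 45.9 to 50.2 and 25.8 to 28.5 CPM, although the Gbx2 points of CTR KD and YAP KD overlap.

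Of the 8 other LIF-responsive genes none was called in YAP KD and 1, Pramel7, in YAP OE. Tfcp2l1, a naive pluripotency factor downstream of STAT3 and the most abundant of the list, was at 548 and 511 CPM in CTR KD and YAP KD (-0.10, adjusted p = 0.194) and at 491 and 485 CPM in CTR OE and YAP OE (-0.018, adjusted p = 0.921). Klf4 was at 87.0 and 91.3 CPM (0.069, adjusted p = 0.725) and at 88.8 and 82.2 CPM (-0.11, adjusted p = 0.228). Pramel7 (gene ID 347712, chr2:87489088-87492418), which is tied to DNA hypomethylation in naive cells, was at 0.406, 0.185 and 0.342 CPM in CTR OE and at 0.992, 0.826 and 1.18 CPM in YAP OE. It rose by a log2 fold change of 1.68 (SE 0.26, adjusted p = 0.0023), from 9 to 21 expected counts per library to 36 to 66, and the call held without any 1 library. In YAP KD its estimate was also above 0, at 0.25 (edgeR, adjusted p = 0.8). The difference between its effects, -1.43, was not called (edgeR, adjusted p = 0.106).

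Zic2, a factor of the formative state, was the 1 marker called in both experiments. It was at 32.6 to 43.7 CPM in CTR KD and 50.7 to 56 CPM in YAP KD, and at 36.2 to 36.9 CPM in CTR OE and 25.3 to 30.7 CPM in YAP OE, on the same sides as Gbx2, Jak3, Socs2 and Pim2. Its effects differed by 0.92 (SE 0.12, adjusted p = 0.000273). The call in YAP KD was lost without CTR KD replicate 3 (adjusted p = 0.068), YAP KD replicate 1 (0.0693) or YAP KD replicate 3 (0.0603). The formative markers as a whole summed to 300 to 337 and 305 to 332 CPM in CTR KD and YAP KD, and to 354 to 390 and 326 to 367 CPM in CTR OE and YAP OE. Most of each sum was Dnmt3b, at 231 and 222 CPM in CTR KD and YAP KD and at 283 and 275 CPM in CTR OE and YAP OE. The median log2 fold change of the 6 markers was 0.27 in YAP KD. There 4 had an unadjusted p under 0.05, beside 2868 of 14606 genes tested, and 1 was called, beside 5.49%. Of these 4, Otx2 went the other way, at -0.16 (edgeR, unadjusted p = 0.00686, adjusted p = 0.087). In YAP OE the median was -0.23. There 3 had an unadjusted p under 0.05, beside 1945 of 14804 genes tested, and 1 was called, beside 2.13%. In the difference of effects 3 of the 6 were called, beside 8.8% of all genes tested. They were Zic2 and, named after their values had been seen, Fgf5 (0.91, SE 0.22, adjusted p = 0.0178) and Lef1 (0.76, SE 0.2, adjusted p = 0.0242), on the same side as Gbx2. Otx2 was on the other side and was not called (-0.22, adjusted p = 0.093). Fgf5 was at 0.679 to 1.54 CPM and Lef1 at 1.78 to 3.6 CPM over the 12 libraries. The call of Fgf5 was lost without CTR OE replicate 2 or 3 or YAP OE replicate 3 (adjusted p 0.0502 to 0.0545), and that of Lef1 without CTR KD replicate 3, YAP KD replicate 3, CTR OE replicate 1 or YAP OE replicate 2 or 3 (0.0544 to 0.0748). Among the immediate early genes, Atf3 was called higher in YAP OE, from 1.45 ± 0.0133 to 2.22 ± 0.382 CPM (adjusted p = 0.0395, a call kept in 1 of the 6 fits without a library, that without YAP OE replicate 1). That call was lost with DESeq2 (0.0651) and in 1 fit over all 12 libraries (0.0544). The sum of the 6 genes was 95.2 to 101 CPM in CTR OE and 86.9 to 95.7 CPM in YAP OE. The part of cell state or of the immediate early response in the values of Gbx2 and Junb was not tested.

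RSEM also gives the mean length of a gene's transcripts weighted by their estimated abundance, which moves with the mix of isoforms. Of the 9 genes, Lifr and Stat3 had lengths that varied between libraries. Lifr was at 8332.9, 8276.3 and 8298.8 bases in CTR OE and at 8450.9, 8454.4 and 8492 bases in YAP OE. The groups did not overlap, and the difference of 163.1 bases had an unadjusted p of 0.000621 and an adjusted p of 0.442 in limma, where 0.0281% of 3555 genes were called. In CTR KD Lifr was at 8343.2, 8245.5 and 8283.3 bases and in YAP KD at 8608, 8485.7 and 8249.8 bases (adjusted p = 0.988, where 0.115% of 3486 genes were called). Stat3 stayed within 4511.7 to 4515.8 bases in all 12 libraries.

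The genes whose pattern was most like that of Lifr, Stat3 and Socs3 were found by Pearson's r of log2(CPM + 0.5) over the 12 libraries, centred on the mean of each experiment, among 12395 genes. For Lifr they were Cebpzos (r = 0.942), Xk (0.94) and Thoc7 (0.939). For Stat3 they were Arhgdia (0.919), Smarcc1 (0.917) and Dcakd (0.893). For Socs3 they were Rsph1 (0.919), Stk11 (0.918) and Nrm (0.915). These values are a description of 12 libraries under a common scaling, and none of the 9 genes was among the genes listed. Some of the 9 did vary together. Pim1 and Pim3 had r = 0.97, and 0.92 when each group was centred on its own mean. Centred in that way, Socs3 had r = 0.85 with Pim1 and 0.81 with Pim3, and pairs of the 9 ranged from -0.49 (Lifr with Socs3) to 0.92. The falls of Pim1 and Pim3 in YAP KD are therefore not independent of each other.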

How the data were processed

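Total RNA of 12 libraries was sequenced on Illumina instruments. Per the labels and the methods of the study, the authors aligned reads with STAR to mm10 (GRCm38) and counted curated RefSeq genes with RSEM; versions and strand are not given in the sources used here, so reads of overlapping antisense genes cannot be told apart. The deposited expected counts are not normalized and can be fractions. The deposited mean transcript length was used in the isoform comparison and the effective length for levels per kilobase. The deposited TPM and FPKM values were not used for any result.

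Expected counts were rounded and each experiment was fitted on its 6 libraries in edgeR 4.0.16 (R 4.3.3), with filterByExpr (minimum count 10, total 15), TMM factors and the two-sided quasi-likelihood F test, with Benjamini-Hochberg adjustment; calls needed an adjusted p under 0.05. The contrast of the effects used all 12 libraries, with filter and scaling over them. The SE is the log2 fold change over the square root of F. Transcript lengths were tested with limma 3.58.1 (trend) on log2 values of genes with at least 100 counts in every library. Alternatives were relative log expression and upper-quartile scaling, 2 other filters, DESeq2 1.42.0, 1 fit over all 12 libraries, a replicate block and leaving out each library. The fit was tested on simulated data. Precision is limited by the 3 libraries per group, and edgeR's common coefficient of biological variation was 5.66% (knockdown) and 4.43% (overexpression). Replicates differed beyond sampling noise in each pair, with chi-square values over genes of 3.54 to 25.7 per degree of freedom, and all were kept.

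The 9 genes, the lists and the motifs were chosen with earlier results of these data known. Genes named were the 9, every pathway or marker gene called in either experiment and at most 3 of the most abundant of each group. Fgf5, Lef1, Dnmt3b, Otx2, Nanog, Zfp42, Esrrb, Pou5f1, Sox2 and Utf1 were named after their values were seen. Promoters and coordinates are from RefSeq on GRCm38.p6.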

Additional observations from a re-analysis of the deposited data

Results flagged for a closer look

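The effect of YAP KD differed from that of YAP OE, in the test of the difference itself (edgeR, 12 libraries, adjusted over all genes tested), for 10 of the genes named. Many of the genes named were picked because they were called in YAP KD or YAP OE, and Fgf5 and Lef1 because of this same test. The count thus follows in part from the choice of genes. Over all 15049 genes tested, 8.8% were called. In log2 units of the YAP KD effect minus the YAP OE effect, the difference was -0.374 for Pim1, -0.376 for Pim3, 0.419 for Gbx2, 0.759 for Jak3, 0.418 for Socs2, -0.739 for Cish, 0.593 for Pim2, 0.92 for Zic2, 0.913 for Fgf5 and 0.758 for Lef1. Of these, Jak3, Socs2 and Zic2 were called in each experiment alone, with opposite signs, though the Jak3 call in YAP OE was lost in 1 fit over all 12 libraries (adjusted p = 0.127) and the Socs2 call in YAP KD with upper-quartile scaling (0.0506). Gbx2, Fgf5 and Lef1 were called in neither. The groups of 3 libraries were too small for a check of single outlying libraries.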

How the results depend on the processing

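With the replicate number as a block, 193 genes were called in YAP KD in place of 802, 0 of the 9 LIF pathway genes in place of 2 (Pim3 at an adjusted p of 0.057 and Pim1 at 0.0991), and 1 of the 50 listed genes (Jak3); in YAP OE Gbx2 was called (1 of 9), and in the difference of effects 784 genes in place of 1325 and 2 of the 9 in place of 3 (Pim1 at 0.0532); for transcript length 0 genes were called in either experiment. Under the block the calls of Socs2 (0.153), Cish (0.118), Shc1 (0.161), Pim2 (0.0773) and Zic2 (0.0717) in YAP KD, of Jak3 in YAP OE (0.0588) and of Lef1 in the difference (0.0673) were lost as well. No pairing by number was seen in the expression values. Deviations of same-numbered libraries correlated at -0.358, -0.233 and 0.017 in the knockdown and 0.0365, 0.0622 and -0.0171 in the overexpression experiment. Not every sample correlated best with its own number. With 3 libraries per group, these values cannot decide whether same-numbered samples were prepared together. One fit over all 12 libraries called 1261 genes in YAP KD, and without a filter 556 genes and 1 of the 9 (Gbx2, adjusted p = 0.0106) were called in YAP OE. Upper-quartile scaling turned Stat3 in YAP KD to -0.00103. Pim1 and Pim3 stayed called in YAP KD under the other 6 settings.

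Leaving out 1 library gave 298 to 1019 genes called in YAP KD, 1 to 3 of the 9 and 1 to 7 of the 50; in YAP OE 154 to 327, 0 to 1 and 1 to 4; in the difference of effects 2 to 5 of the 9 and 4 to 9 of the 50; and 0 to 2 and 0 to 3 genes for transcript length. Signs turned for Stat3 (-0.0138 to 0.0352) and Pramel7 (-0.0802 to 0.695) in YAP KD, Il6st (-0.037 to 0.00452), Socs3 (-0.0177 to 0.0823), Pim3 (-0.0225 to 0.0609) and Shc1 (-0.00219 to 0.0763) in YAP OE, and Jak1 (-0.0369 to 0.018) in the difference. The cause of these changes was not tested, beyond fewer samples. Genes near 10 counts, such as Pramel7 in the knockdown, are limited by depth.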
